A study of Mus musculus with 12 samples.

Results

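The end of mouse chromosome 4 holds Agrn, Noc2l and Samd11, 3 protein-coding genes within the window from 156150000 to 156270000 of build mm10. Trimethylation of lysine 9 on histone H3 (H3K9me3) was measured by chromatin immunoprecipitation and sequencing, and the authors' deposited table compares the mark between Tex19.1 genotypes over 68291 regions. Of these, 8 overlap the window, and the other 19 regions of chromosome 4 that start at or after 155000000 serve as comparison. The window was proposed with the deposited changes in view, so its 8 regions were in effect chosen by their log2 fold changes and calls. Those values are given as a description, and no test is made on them.

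The cells were mouse embryonic stem cells derived from E14Tg2a, of strain background 129/Ola, at passages 12 to 20, grown in serum with medium conditioned with leukaemia inhibitory factor. The 2 genotypes were Tex19.1+/- (titled Het) and Tex19.1-/- (titled KO), and the heterozygous cells thus carried a Tex19.1 mutant allele too. Each genotype had 3 immunoprecipitated and 3 input libraries, 12 in all, and no wild-type cells. Whether a genotype stands for 1 clone, and whether its 3 libraries came from separate cultures, is not given in the sources used here. In 6 of the 12 libraries the genotype field contradicts the title, and the groups here follow the titles. Values of single libraries are not in this table (0 such columns), so no result could be recomputed without those 6, depth per library is unknown, and the values carry no SD between replicates. Which genotype was the reference is not given either, so each change is stated by its sign as deposited. The cell type could not be checked against expressed markers. Of 6 pluripotency genes looked up, Nanog and Esrrb had H3K9me3 regions in or within 5000 bp of the gene, 3 in all. Of these regions 0 were called by the authors' deposited FDR, and 0 had an unadjusted p below 0.05. Over all regions the shares were 0.281% and 4.74%, so nothing is read from the lack.

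H3K9me3 is a mark of heterochromatin, placed by methyltransferases such as SETDB1 and SUV39H1 and bound by HP1 proteins. In embryonic stem cells much of it lies over retrotransposons, where zinc finger proteins and TRIM28 recruit SETDB1. Agrn encodes agrin, a heparan sulfate proteoglycan of basement membranes that organises acetylcholine receptors at the neuromuscular junction, and is made in secreted and membrane-bound forms from different start sites. Noc2l encodes a nucleolar protein of ribosome biogenesis that is also known as an inhibitor of histone acetylation and a partner of p53. Samd11 encodes a nuclear protein with a SAM domain, a fold shared with Polycomb proteins, and is known from photoreceptors.

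The reference sequence nearest to the changed regions is that of the gene starts, taken from the RefSeq promoter table of GRCm38.p6, the assembly that mm10 names. The 250 bases before a start are printed 5′ to 3′ with CG dinucleotides, the sites of CpG methylation, in capitals. Gm52691, a noncoding RNA gene antisense to Noc2l, is shown because its start is the one among 14 listed in the window whose upstream bases lie inside an H3K9me3 region. The others printed lay outside the listed regions, which does not show that they lacked the mark.
Gm52691 (chr4:156245168-156245417, minus strand): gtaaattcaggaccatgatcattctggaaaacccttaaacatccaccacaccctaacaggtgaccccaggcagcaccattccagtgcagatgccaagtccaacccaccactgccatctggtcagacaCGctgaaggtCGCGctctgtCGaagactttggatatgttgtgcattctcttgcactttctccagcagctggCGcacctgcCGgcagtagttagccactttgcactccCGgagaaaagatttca
Samd11 (chr4:156255343-156255592, minus strand): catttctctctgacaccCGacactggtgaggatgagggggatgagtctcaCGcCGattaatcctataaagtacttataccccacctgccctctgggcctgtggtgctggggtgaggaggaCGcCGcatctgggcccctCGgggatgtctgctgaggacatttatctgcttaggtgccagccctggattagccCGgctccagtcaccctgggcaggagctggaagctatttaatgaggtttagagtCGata
Noc2l (chr4:156235760-156236009, plus strand): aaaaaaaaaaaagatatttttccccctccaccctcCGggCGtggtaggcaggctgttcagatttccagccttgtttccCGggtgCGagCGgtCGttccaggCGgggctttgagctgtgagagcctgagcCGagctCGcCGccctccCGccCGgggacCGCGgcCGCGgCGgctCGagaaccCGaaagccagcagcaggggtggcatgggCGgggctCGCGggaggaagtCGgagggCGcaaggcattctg
Agrn, outer start (chr4:156197489-156197738, minus strand): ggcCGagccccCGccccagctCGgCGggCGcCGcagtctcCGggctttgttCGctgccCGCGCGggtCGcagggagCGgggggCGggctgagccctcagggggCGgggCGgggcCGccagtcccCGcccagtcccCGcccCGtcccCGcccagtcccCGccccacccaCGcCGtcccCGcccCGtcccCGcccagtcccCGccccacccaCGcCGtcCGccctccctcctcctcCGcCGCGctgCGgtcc
Agrn, inner start (chr4:156186260-156186509, minus strand): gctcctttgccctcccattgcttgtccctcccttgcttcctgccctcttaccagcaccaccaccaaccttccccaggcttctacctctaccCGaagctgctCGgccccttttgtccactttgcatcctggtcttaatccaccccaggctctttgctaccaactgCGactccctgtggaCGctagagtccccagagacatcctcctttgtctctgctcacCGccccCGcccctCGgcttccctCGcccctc
The outer Agrn start had 35 CG dinucleotides and a GC content of 83.6%, and Noc2l had 24 and 65.6%. Both stand above the median of 6 CG dinucleotides over the 250 bases before 32851 starts in the table, whose middle 50% ran from 2 to 16. Samd11 and the inner Agrn start had 8 each and Gm52691 had 7, near that median. The hexamer TGCCGC, which the imprinting factor ZFP57 binds when methylated, was searched on both strands. It was in the upstream bases of 2 of the 14 starts in the window, those of Klhl17 and the noncoding AW011738, and in none of the 5 printed above. Over all starts 8.68% held it. That these letters are missing from a window says nothing of the factor.

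The highest deposited change of the window was at Noc2l and Samd11. One region lay across the 3′ ends of both genes, which face each other, and 2 more lay inside Noc2l. All 3 were positive in the authors' deposited table, with fold changes from 1.60 to 2.06, and 2 of them were called, meaning a deposited FDR below 0.05. Inside Agrn a broad region was called at a 1.32-fold change and a short, weak one beside it had 1.92-fold and was not called. At the 3′ end of Agrn and past it, 3 regions had changes between -0.02 and 0.03 on the log2 scale, 2 of them with a log2 CPM of at least 4. Of the 8 regions 3 were called, all positive. Of all 68291 regions, 0.281% were called in either direction, 0.192% as positive and 0.0893% as negative. Because the window was picked with these calls known, nothing is read from that difference.

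**Figure D1:**
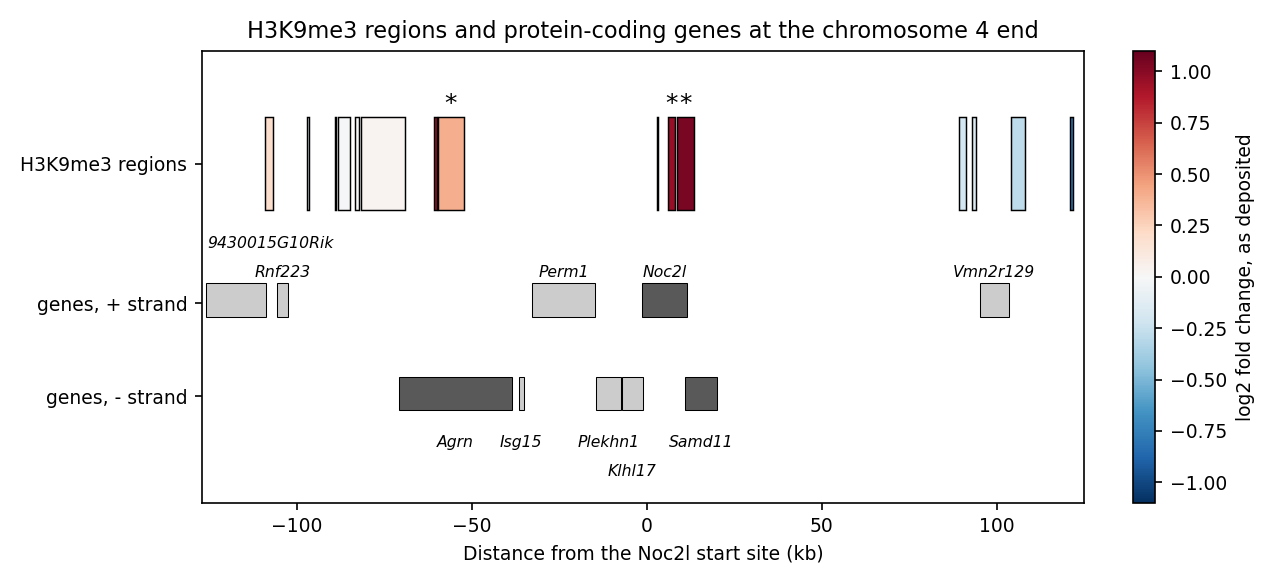
Map of the window and its surroundings. Boxes in the upper row are H3K9me3 regions, coloured by the deposited log2 fold change, and asterisks mark called regions; boxes below are protein-coding genes by strand, with Agrn, Noc2l and Samd11 in dark grey. The x axis is the distance in kb from the Noc2l start site. The 3 called regions lie inside Agrn and at Noc2l and Samd11. The first 3 regions of the window are near 0, and the drawn regions outside it run from -0.80 to 0.19.

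The region at 156244805 to 156249554 (4750 bp) covers 2812 bp of Noc2l, 2589 bp of Samd11 and 363 bp of Gm52691. In the authors' deposited table its log2 fold change was 1.04 (FDR 2.3e-08). The standard error derived from the deposited p-value was 0.15, and the 95% interval for the fold ran from 1.68 to 2.53. Its average signal was 41.5 CPM, counts scaled to library size. Ranked by p it was number 14 of the 192 called regions.

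The neighbouring region at 156242199 to 156244176 (1978 bp) lies wholly in Noc2l and covers 504 bp of Gm52691. Its value was 0.95 in the authors' deposited table (FDR 0.0214), its derived error 0.23 and its average signal 17.8 CPM. Only 628 bp separate it from the region across the gene ends. Its interval ran from 0.50 to 1.41, and that of its neighbour from 0.75 to 1.34. The third region in Noc2l, at 156238845 to 156239334, was short (490 bp) and weak (4.69 CPM). Its 0.68 in the authors' deposited table had an FDR of 1 and an interval from -0.43 to 1.79, so at this signal a change as large as that of its neighbours and no change at all are both within the interval.

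Agrn, on the minus strand from 156165290 to 156197533, had 3 regions. The broad one at 156176274 to 156183752 (7479 bp) lies wholly inside the gene, 2508 bp from the bases printed for the inner start. The authors' deposited table gives it 0.40 (FDR 0.0123). Its derived error was 0.09 and its signal 99.4 CPM, more than that of 98.7% of regions. Its interval ran from 0.22 to 0.58. Immediately beside it, 189 bp away, a region of 726 bp at 156175359 had 0.94 in the authors' deposited table, where its unadjusted p was 0.0301 (FDR 0.922). At 6.76 CPM its interval ran from 0.09 to 1.79.

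The third Agrn region, at 156154496 to 156166883, was the widest of the window at 12388 bp, wider than 99.9% of all regions. It covers 1594 bp of the 3′ end of Agrn and extends past the gene. It was also the strongest, at 178 CPM, and so the most precise. Its change was 0.03 in the authors' deposited table (FDR 1), with an interval from -0.12 to 0.17. The 2 regions still further past the gene end had -0.01 (156152736 to 156153748, interval -0.58 to 0.56) and -0.02 (156147890 to 156151371, interval -0.28 to 0.25) in the authors' deposited table. Neighbouring H3K9me3 regions of the same gene thus differed in their call, and the difference between them was not tested.

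**Figure D2:**
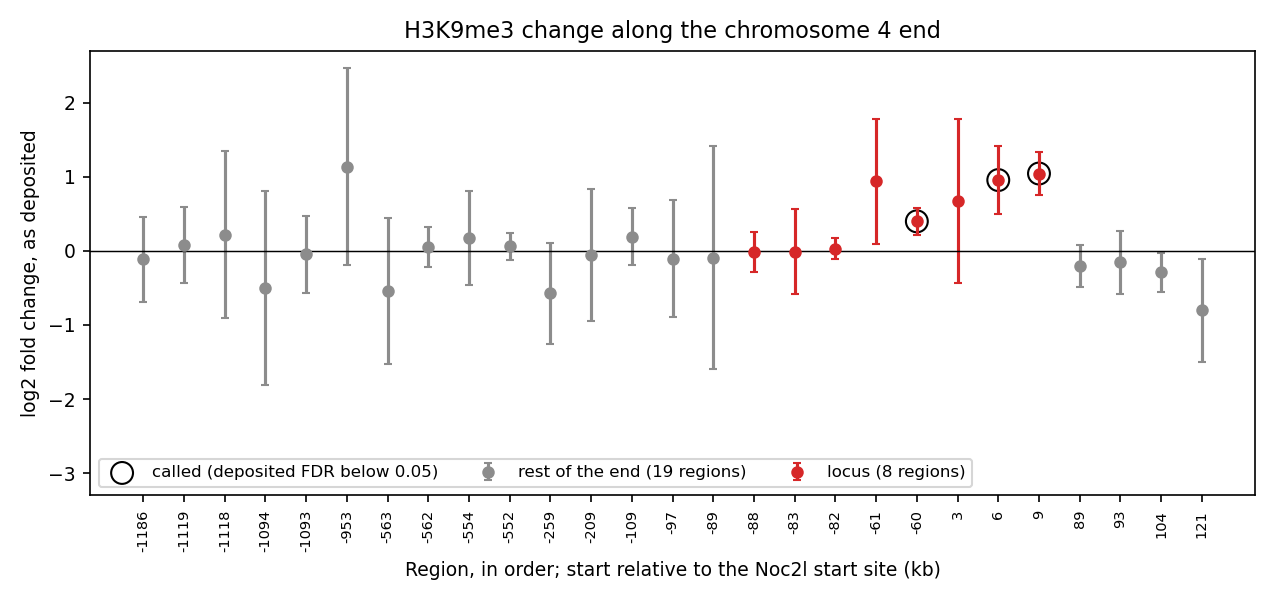
Deposited log2 fold change of the 27 regions of chromosome 4 from 155000000, in order along the chromosome and labelled by distance in kb from the Noc2l start site. Bars are 95% intervals from the derived errors, red points are the 8 regions of the window, and circles mark the 3 called ones. The last 5 regions of the window, which was chosen with these values known, lie between 0.40 and 1.04. The 4 regions past it are all negative and were not called. Of all 68291 regions 34675 are negative.

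The 5 regions with log2 fold changes from 0.40 to 1.04 stood in a run from 156175359 to 156249554, a stretch of 74196 bp, with a gap of 55092 bp in its middle that held no region. In that gap lie the printed starts of Agrn and Noc2l and 4 protein-coding genes without a region, namely Isg15, an interferon-induced ubiquitin-like modifier, Perm1, a muscle regulator of mitochondrial genes, Plekhn1 and Klhl17, an actin-binding kelch protein of neurons. Of 7 protein-coding genes in the window, 3 overlapped a region, and these were the 3 with a call. In the rest of the chromosome end 5 of 43 overlapped a region and 0 had a call. The window was picked with its regions and calls known, so nothing is read from these gene counts. Regions covered 40.7% of Noc2l, 30.4% of Agrn and 28.6% of Samd11. No region of the window covered the bases printed for the starts of these 3 genes. The nearest distances were 2836 bp for Noc2l, 5789 bp for Samd11 and 13737 bp for the outer Agrn start.

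The level of the mark in each genotype was worked out from the deposited average and fold change, on the assumption that the average is the plain mean of the 2 genotypes. The table gives no level by genotype, and the assumption could not be checked. At the region across Noc2l and Samd11 the implied levels were 5.71 CPM per kb in the reference genotype and 11.8 in the other. At the neighbouring Noc2l region they were 6.12 and 11.9, at the weak one 7.36 and 11.8, and at the short Agrn region 6.39 and 12.2. The higher level was thus close to the median average density of all listed regions, 11.3 CPM per kb. The lower levels 5.71 and 6.12 were under the lowest average density of any listed region, 6.21. This sets levels of 1 genotype against averages of both, so a large change alone can bring it about. In the rest of the chromosome end the lowest implied level was 4.91, against 10.8 in the other genotype, at an uncalled region in Prkcz. Such regions may be listed only through the genotype where they are higher, so a higher level near the median may be built in. This was not tested. These levels are rebuilt from the deposited fold changes that chose the window and add no evidence to them. The broad Agrn region went from 11.5 to 15.1, and the 3 regions at and past the 3′ end of Agrn had from 12.7 to 14.5 in both genotypes.

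**Figure D3:**
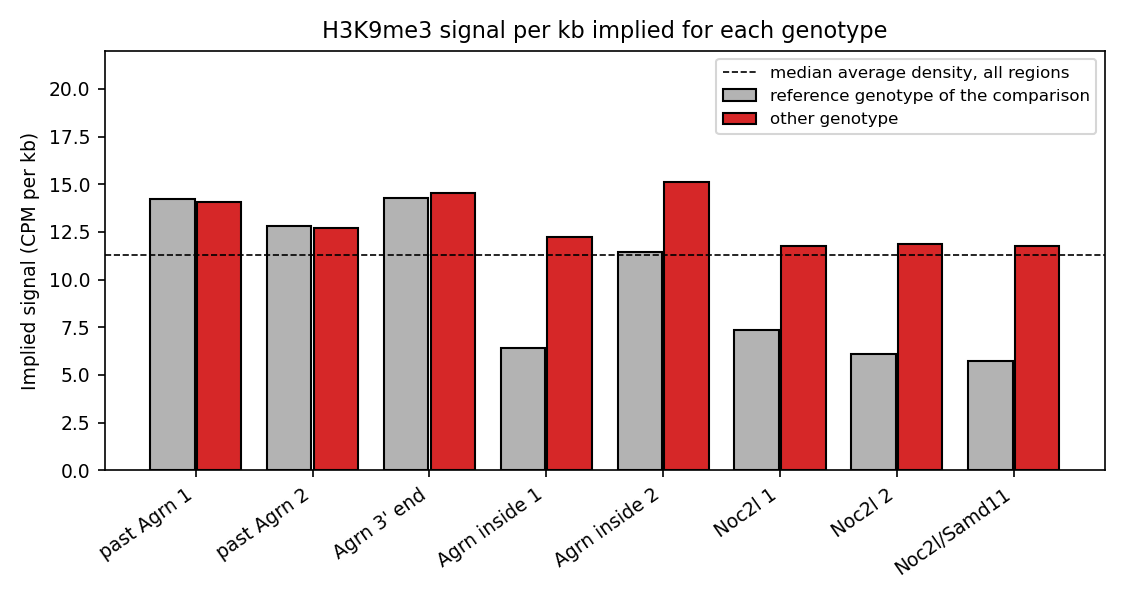
H3K9me3 signal implied for each genotype at the 8 regions of the window, in CPM per kb, in order along the chromosome. Grey bars are the reference genotype of the deposited comparison and red bars the other; the dashed line is the median average density of all regions, 11.3. In the 3 Noc2l regions and the short Agrn region the grey bars lie between 5.71 and 7.36 and the red bars between 11.8 and 12.2.

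The regions of the window were broader and stronger than most, in measures that are tied to calls and so to the choice of the window. Their median width was 2730 bp and their median signal 29.7 CPM, against 981 bp and 10.96 CPM in the rest of the chromosome end, and 774 bp and 8.44 CPM over the table. Of the 8, 5 had a log2 CPM of at least 4 (62.5%), against 26.4% of all regions. Calls are easier at such signal: 0.976% of the regions at or above a log2 CPM of 4 were called, against 0.281% of all. Signal per kb did not stand out in the same way, with a median of 11.2 CPM per kb in the window, 11.6 in the rest of the end and 11.3 over the table. Within the window it was lowest at the 2 called Noc2l regions, 8.74 and 8.99 CPM per kb, with 5.60% and 8.20% of the table's regions below them.

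**Figure D4:**
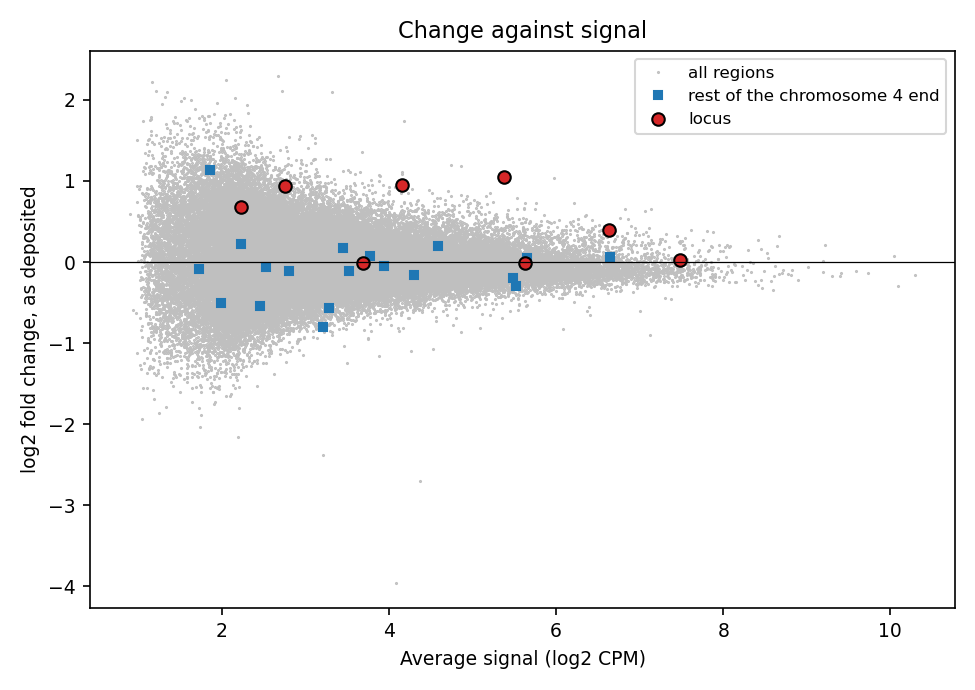
Deposited log2 fold change against average signal in log2 CPM. Grey dots are all 68291 regions, blue squares the 19 regions of the rest of the chromosome end and red circles the 8 regions of the window. The region across Noc2l and Samd11, at a log2 CPM of 5.38 and a change of 1.04, is the highest of the 8 red circles.

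The rest of the chromosome end had no call. Of its 19 regions 0 passed the authors' deposited FDR, where 0.281% of all regions did, so nothing is read from the lack. An unadjusted p below 0.05 was found at 2, both negative. Only 6 of the 19 had a log2 CPM of at least 4. Their median derived error was 0.32 over all 19, against 0.19 in the window. The median log2 fold change was -0.09 in the rest of the end and 0.54 in the window, against -0.02 on chromosome 4 and -0.01 over the table. The window's median lies between 3 regions near 0 and 5 from 0.40 to 1.04, and it was 0.192 with the window widened by 50 kb and 0.343 as a mean weighted by width. The strongest of the 19 regions outside the window, at 155683588 to 155689145 between Mib2 and Fndc10, had 0.06 at 100.3 CPM (interval -0.13 to 0.25) in the authors' deposited table. The highest change among those with a log2 CPM of at least 4 was 0.19 at 9430015G10Rik (156126877), with an FDR of 1. The 2 regions just outside the lower edge of the window had -0.11 (156138864) and -0.09 (156146904) in the authors' deposited table. The lowest value at a log2 CPM of at least 4 was -0.29 at 156340079, beside the vomeronasal receptor gene Vmn2r129, in the authors' deposited table (unadjusted p = 0.0332, FDR 0.958). All 4 regions past the window, which begin 75540 bp from its last region, were negative, from -0.80 to -0.16. Of all 68291 regions 34675 were negative, so nothing is read from these signs. The highest change of the whole end, 1.14 in Prkcz, was at a region of 3.61 CPM with an interval from -0.19 to 2.46, a value chosen after it was seen.

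Elsewhere on chromosome 4, 6 of the other 3924 regions were called, 2 positive and 4 negative. With the window included, 0.229% of the chromosome's regions were called, against 0.281% of all regions. Of the chromosome's 5 positive calls 3 were in the window, which was chosen with them known, so nothing is read from that. The other 2 positive calls lay at 54980386 to 54983176 (0.80) and 55001902 to 55006741 (0.44) in the authors' deposited table. When calls of the same sign at most 58447 bp apart, the widest distance between calls in the window, were joined over the genome, 7 groups held 3 or more calls and 123 calls stood alone. Of the 7, 5 were positive, and the one described here was the sole such group on chromosome 4. The distance came from the window itself, so its place in this count is fixed by the choice.

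Genes that work with the 3 members were looked up from lists of each member and its known partners. A region was assigned to a gene when in its body or within 5000 bp. The counts of genes with a region include the member itself, while the region counts leave out the window. For agrin the partners were its receptors and signalling partners at the synapse (Lrp4, Musk, Dok7, Rapsn, the acetylcholine receptor subunits) and other basement membrane genes. Of 18 genes 8 had a region, and 0 of the 19 regions outside the window were called (0 with an unadjusted p below 0.05). Over all regions 0.281% were called. Their median was -0.09. Lrp4, the agrin receptor, and Dok7 had no region. Musk, the kinase that agrin signalling activates, had 3, with values from -0.01 to 0.79. The smallest p among them was at Col18a1, a basement membrane collagen, with -0.87 (p = 0.0596, FDR 1) in the authors' deposited table.

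For Noc2l the list held nucleolar partners, histone acetylation regulators and the p53 family. Of 16 genes 5 had a region, and 0 of the 8 regions outside the window were called, with 1 at an unadjusted p below 0.05 and a median of 0.16. That region was in Hdac2, a histone deacetylase, with 0.74 (p = 0.0475, FDR 1) in the authors' deposited table. Hdac2 held 5 of the 8 regions, and its others ran from -0.18 to 0.20. Noc3l and Trp53 had no region. For Samd11 the list held SAM domain and Polycomb genes and photoreceptor regulators. Samd13 was not matched in the RefSeq table. Of 18 genes 9 had a region, and 0 of the 13 regions outside the window were called, with 1 at an unadjusted p below 0.05 and a median of -0.12. It was in Phc3, a Polycomb subunit, with -0.68 (p = 0.0377, FDR 0.976) in the authors' deposited table. Together the lists had 40 regions outside the window, 18 positive and 22 negative, with a median of -0.05. Of the 40, 0 were called, where 0.281% of all regions were, so nothing is read from the lack of calls. An unadjusted p below 0.05 was found at 2, where 4.74% of all regions had one. The median signal of the 40 regions was 7.48 CPM and their median derived error 0.40, so a change of the size called in Agrn was not detectable at most of them.

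**Figure D5:**
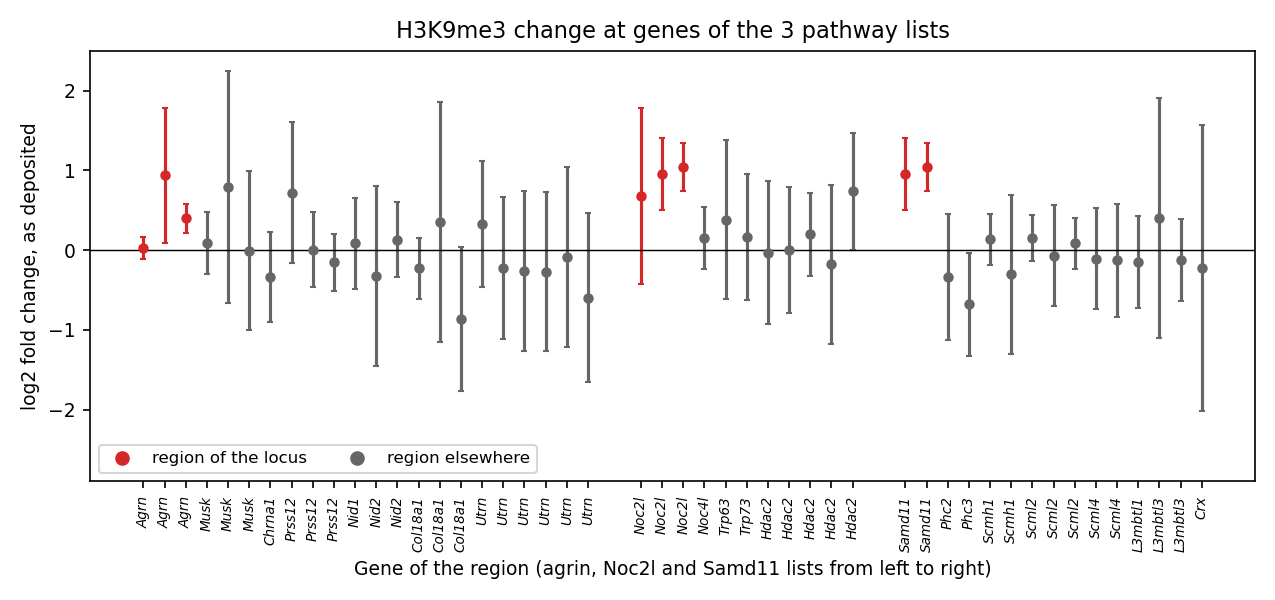
Deposited log2 fold change, with 95% intervals from the derived errors, of each region at genes of the agrin, Noc2l and Samd11 lists. Red points are regions of the window and grey points regions elsewhere; 2 regions stand under both Noc2l and Samd11. Grey points lie between -0.87 and 0.79, and none of them was called.

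The call at the region across Noc2l and Samd11 was the 1 of the 3 that held at an FDR below 0.01, under Holm adjustment (adjusted p = 3.22e-07) and with all derived errors enlarged 1.5 times (adjusted p = 0.0197). The calls inside Agrn and at the neighbouring Noc2l region were lost in each of these. The derived errors fell with signal. Multiplied by the square root of CPM, which would be constant for counting error alone, their median was 1.15 at a log2 CPM of 2 to 3. It was 1.04 at 3 to 4, 0.99 at 4 to 5 and 0.94 at 7 to 8. Whether variation between libraries is missing from the deposited p-values was not tested.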

How the data were processed

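H3K9me3 immunoprecipitates and inputs were sequenced in 12 libraries. Build mm10 and the tools edgeR, bedtools 2.25.0, HOMER 4.8 and Bowtie2 2.2.6 come from the submitters' processing notes, which state no role for them. How regions were defined, the use of input and the libraries compared are not given in the sources used. Per the file headers, the authors deposited 68291 regions with log2 fold change, mean log2 CPM, p-value and FDR. Coordinates are printed as deposited, and widths count both ends. Members and gene lists were chosen with earlier results of these data known.

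The deposited FDR differed from a Benjamini-Hochberg adjustment of the p-values by at most 3.2e-05. Errors were derived by dividing the size of each log2 change by the normal deviate that its p-value gives, if at least 1 (19017 regions). Elsewhere the median error at that signal was used, in log2 CPM bins of 0.25. Intervals are 1.96 errors to each side and cover only what the authors' test covers. The code of these steps was checked on simulated data whose errors depended on signal alone. That check cannot tell whether the derived errors hold for the authors' p-values. Named regions are all 8 of the window, and by rule the strongest, most changed and nearest outside it and those of smallest p per list. A planned test on library counts was not possible with this table. Python 3.11.15, pandas 2.3.3 and scipy 1.17.1 were used.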

Additional observations from a re-analysis of the deposited data

How the results depend on the processing

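The 3 calls in the window became 1 at an FDR below 0.01, 1 under Holm adjustment and 1 with derived errors enlarged 1.5 times, an alternative chosen after seeing the data, and the count over the agrin, Noc2l and Samd11 lists went from 3 to 1, 1 and 1 in the same settings, since its calls are those of the window. Both counts were 3 with regions of at least 1000 bp, with a log2 CPM of at least 4, and without chromosomes 11 and 16, whose medians are raised, at 0.28 and 0.32. The rest of the chromosome end had 0 calls in all 6 of those settings and when begun 1 Mb earlier, and 6 when widened to the whole of chromosome 4. The median of the window, 0.538, was 0.343 as a mean weighted by width, 0.808 over gene bodies alone and 0.192 with the window widened by 50 kb, which brings in regions near 0. No result was reversed. Leaving out single libraries was not run because the table holds no values of single libraries. No paired analysis was possible because of the same lack. Weak regions had wide derived errors, 0.56 at 4.69 CPM and 0.43 at 6.76 CPM. Depth per library is unknown.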
